A study of Mus musculus with 24 samples.

Results

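The nuclear genes for subunits of the mitochondrial respiratory chain and ATP synthase were examined in mouse bone marrow-derived macrophages that were wild type (WT) or knocked out for OGT (KO). Members were taken by gene symbol alone: all symbols beginning Ndufa, Ndufb, Ndufc, Ndufs or Ndufv (without Ndufaf), Uqcr, Atp5, Cox4, Cox5, Cox6, Cox7 or Cox8, together with Sdha, Sdhb, Sdhc and Sdhd, and without pseudogene symbols that hold -ps. This gave 85 of 24421 genes, with 38 named for complex I, 4 for complex II, 8 for complex III, 18 for complex IV and 17 for complex V. Of these, 81 passed the filter on low counts and were tested. The 4 that did not pass were Cox7b2 and Cox8b, at 0 counts in all 24 libraries, Cox8c with 2 counts in all and Ndufs5 with 3. Absence of a message and reads lost in counting cannot be told apart here, so these counts do not show that Ndufs5 is silent.

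RNA was sequenced from cells of C57BL/6J mice aged 12 weeks, in 6 groups of 4 libraries: WT and KO, each unstimulated (M0), stimulated for 12 hours with LPS at 100 ng/ml, or stimulated for 12 hours with IL-4 at 10 ng/ml. LPS, a bacterial cell wall component, and the cytokine IL-4 drive macrophages towards the states that the labels call M1 and M2. Libraries carry the numbers 1 to 4 in WT and 5 to 8 in KO. The sources used here do not give the allele, the Cre driver or the number of mice. Nothing says that replicate libraries were made from different mice or cultures, so p-values measure only their spread. OGT attaches O-linked N-acetylglucosamine to nuclear, cytosolic and mitochondrial proteins.

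The respiratory chain passes electrons from NADH through complex I, or from succinate through complex II, by way of ubiquinone to complex III, cytochrome c and complex IV, where oxygen is reduced. Complexes I, III and IV pump protons, and complex V, the ATP synthase, uses the gradient. In macrophages, IL-4 is known to raise oxidative metabolism, whereas LPS is known to shift cells towards glycolysis and to make succinate oxidation by complex II a source of signals for cytokine genes.

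Gene counts per library were 63429271 to 94942464 in 21 libraries and 172771 to 209368 in the other 3, which are WT LPS 1, WT LPS 2 and KO LPS 7. Levels are given as counts per 1e6 counts (CPM), corrected with TMM factors. A count of 0 allows up to 0.055 CPM in a deep library and 17.9 CPM in a shallow one, covering counting error only. Ogt, the targeted gene, had means of 49.6 CPM in WT and 35.4 CPM in KO in M0, 59.2 and 40.6 CPM in LPS, and 54.4 and 33.3 CPM in IL-4, and the value of 53.8 CPM in KO LPS 7 rests on 9 counts. The log2 differences of Ogt in KO from WT were -0.49, -0.63 and -0.71 in M0, LPS and IL-4. Gene-level counts of this size do not by themselves show a knockout, so the KO label rests on the submitters, and no source used here says which part of the gene was deleted. Of 9 macrophage markers, none was at 0 in every deep library, and their summed level was 12100 to 13800 CPM in WT M0 and 7600 to 9420 CPM in KO M0, 15100 to 15800 and 8420 to 10800 CPM in LPS, and 6360 to 7070 and 5600 to 6020 CPM in IL-4. The 6 stromal markers summed to 9520 to 11200 CPM in WT M0 and 13700 to 18400 CPM in KO M0, 10500 to 13400 and 15400 to 17600 CPM in LPS, and 7000 to 7490 and 10300 to 13600 CPM in IL-4. The 5 endothelial markers summed to 13.1 to 16.1 CPM in WT M0 and 23.5 to 66.7 CPM in KO M0, 20.6 to 46.8 and 83.4 to 126 CPM in LPS, and 19.3 to 22.1 and 18.8 to 40.5 CPM in IL-4. By edgeR's quasi-likelihood test at an adjusted p under 0.05, 3, 5 and 2 of the 9 macrophage markers were lower in KO in M0, LPS and IL-4. In the same order, 0, 2 and 1 were higher. The stromal markers had 5 of 6 higher in each state and the endothelial ones 4, 2 and 3 of 5, with 0 lower. Of all genes, 10.5%, 14.6% and 18.2% were lower and 11.8%, 16.2% and 17.9% higher. These marker sums move with the genotype in the same libraries as the results below, and their part in those results was not tested. In these bulk samples, fewer cells of a type and less RNA per cell cannot be told apart. KO libraries 5 and 6 also stood apart from 7 and 8: in KO IL-4 the root mean square log2 difference was 0.135 between 5 and 6, 0.153 between 7 and 8, and 0.238 to 0.289 across the pairs.

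At rest, subunit messages were not made in equal amounts. Per kilobase of annotated exon, the highest level in WT M0 was that of Cox6a1, a structural subunit of complex IV, at 886 CPM per kb. Cox4i1, the ubiquitous form of a regulatory complex IV subunit, followed at 603 CPM per kb. Atp5e and Atp5b, the epsilon and the catalytic beta subunit of the F1 head of ATP synthase, stood at 426 and 413 CPM per kb, a difference smaller than the spread of Atp5e between the 4 libraries. The median level of the tested members was 59.3 CPM per kb for complex I, 76.4 for complex II, 131 for complex III, 120 for complex IV and 111 for complex V.

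**Figure D1:**
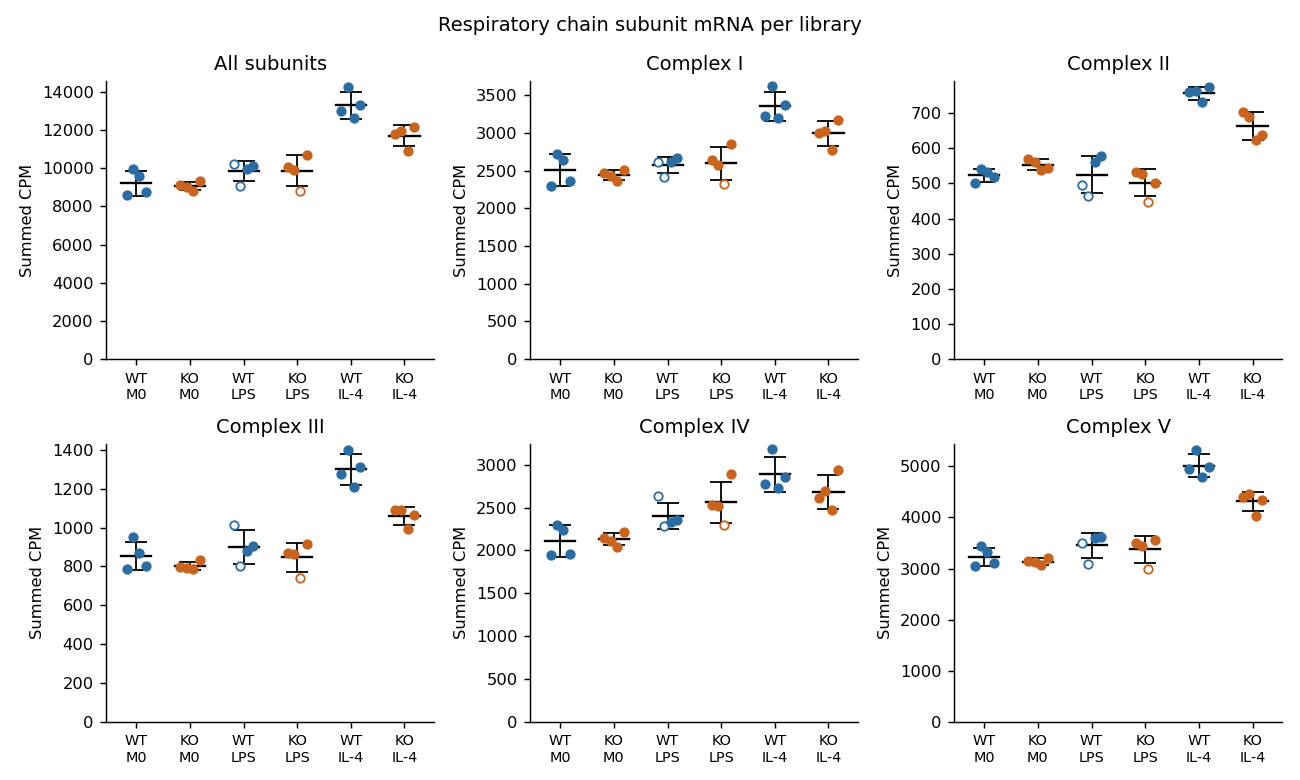
Summed level of all members and of each complex (CPM, vertical axes from 0) in the 6 groups; each point is 1 library, open points are the 3 shallow libraries, and bars give the mean and SD of 4 libraries. The sum over all members was 13310 ± 705 CPM in WT IL-4 and 11710 ± 559 CPM in KO IL-4, and the mean of each IL-4 group lies above those of the other 4 groups in every panel.

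IL-4 raised subunits of every complex in WT macrophages. The summed level of all members was 8579, 9947, 9610 and 8739 CPM in WT M0 libraries 1 to 4 and between 12660 and 14290 CPM in WT IL-4, so the groups did not overlap. Of 81 members, 71 were called higher after IL-4 and 5 lower by edgeR's quasi-likelihood test at a Benjamini-Hochberg adjusted p under 0.05, where 30.9% of all 14693 genes were called higher and 29.3% lower. The median log2 fold change of the members was 0.484, against -0.013 over all genes. By complex, 32 of 37 members rose in complex I, 4 of 4 in complex II, 8 of 8 in complex III, 12 of 15 in complex IV and 15 of 17 in complex V, with medians of 0.437, 0.57, 0.559, 0.521 and 0.532. The 5 members that were not called, Ndufa1, Ndufa3, Ndufa6, Ndufb11 and Atp5s, had log2 fold changes of 0.04 to 0.16.

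The same stimulus raised fewer members, by less, in KO cells. Here 62 of 81 members were called higher and 5 lower, with 26% of all genes called higher and 25.2% lower, and the median log2 fold change was 0.364, against -0.015 over all genes. The medians by complex were 0.323, 0.26, 0.391, 0.366 and 0.428 for complexes I to V. All 62 were also called higher in WT. The other 9 of the WT calls, among them Ndufs3, Uqcrh, Cox4i1 and Cox7a1, were not called in KO, and none of these 9 passed the test of the difference between the responses.

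Tested gene by gene, the difference between the IL-4 responses was small for nearly all members. The fitted response was smaller in KO than in WT for 71 of 81 members, against 7341 of 14693 genes. Among members called higher in WT it was smaller in KO for 67 of 71 (94.4%), against 80.6% of the 4535 genes called higher. Choosing genes by their WT call itself favours a smaller KO response, for members as for all genes. The interaction, the KO response minus the WT response, was called lower for 2 members, Sdhb and Sdhd, and higher for none, where 0.667% of all genes were called lower and 0.47% higher. With the library number added as a replicate block, 20 members were called lower and none higher, where 4.23% of all genes were lower. Without that block no member of complexes I, III, IV or V passed, although the medians were below 0 in each of them, at -0.142, -0.221, -0.079 and -0.146.

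In IL-4-stimulated cells, many members were lower in KO than in WT macrophages, and by small amounts. Of 81 members, 41 were called lower in KO than in WT and 1 higher, with 18.2% of all genes called lower and 17.9% higher. The median log2 fold change was -0.195, against 0.007 over all genes. Lower calls numbered 18 of 37 in complex I, 2 of 4 in complex II, 6 of 8 in complex III, 5 of 15 in complex IV and 10 of 17 in complex V. The largest were in Uqcr10, Ndufv1 and Atp5e, at -0.64, -0.56 and -0.53 on the log2 scale. Ndufa4l2 was the 1 member higher in KO. Of the 41, 35 had risen with IL-4 in both genotypes, so they rose in KO and ended below WT. The number of lower calls was 45 without the 3 shallow libraries, 42 without KO libraries 5 and 6 and 35 without KO libraries 7 and 8, of which 40, 36 and 33 were among the 41, and it was 28 without WT IL-4 library 2 or KO IL-4 library 7. It was 25 with DESeq2 and 14 when neighbouring library numbers were summed to 2 samples a group.

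**Figure D2:**
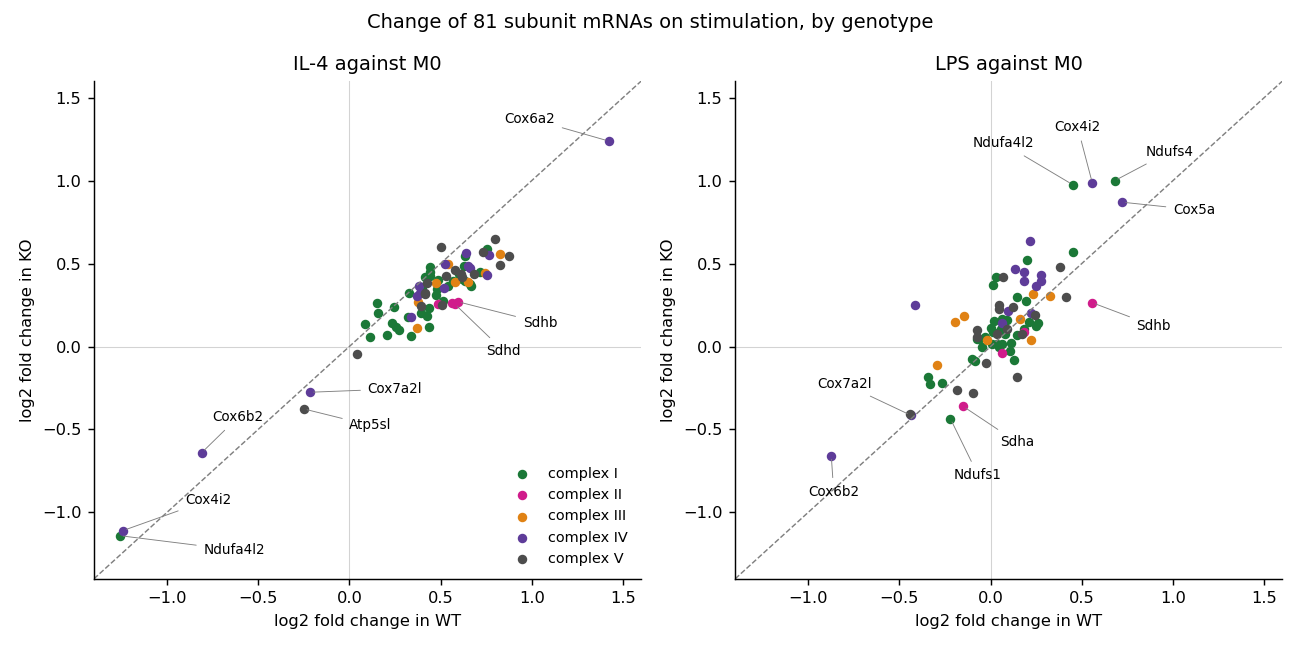
Log2 fold change after IL-4 (left) and after LPS (right) in KO (vertical axis) against WT (horizontal axis) for the 81 tested members, with the dashed line at equal responses. After IL-4, 71 members lie below the line, and after LPS, 53 lie above it. The members' median of KO minus WT was -0.153 after IL-4 and 0.072 after LPS, against 0 and -0.016 over all genes.

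LPS moved members in both directions. In WT, 19 of 81 members were called higher and 9 lower, with 29.4% of all genes called higher and 28.3% lower. The median log2 fold change was 0.069, against -0.014 over all genes. Cox5a and Ndufs4 rose the most among members above 5 CPM, by 0.72 and 0.68, and Cox7a2l fell the most, by 0.44. In KO, 32 of 81 members were called higher and 10 lower, with 31.2% of all genes called higher and 36% lower, and the median was 0.114, against -0.067 over all genes. Calls of 16 members as higher and 7 as lower were shared by both genotypes, and no member was called in opposite directions.

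The split of the LPS calls depended on the scaling between libraries. With relative log expression (RLE) factors in place of TMM, the median of all genes moved to -0.113 in WT and -0.153 in KO. The members were then called higher and lower in 11 and 14 cases in WT and in 21 and 13 cases in KO. Leaving out 1 library at a time moved the number called higher in WT between 13 and 27. For IL-4 the same scaling gave 69 members higher in WT and 60 in KO.

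The test of the difference between the LPS responses called 2 members higher in KO, Uqcrh (0.34) and Uqcrfs1 (0.33), and 2 lower, Sdhb (-0.29) and Atp5g1 (-0.33), with 6.62% of all genes called higher and 4.79% lower. The fitted LPS response was larger in KO for 53 of 81 members, and for 14 of the 15 in complex IV, whose median difference was 0.154. No complex IV member passed the test in the reported fit. Over all members the median difference was 0.072, against -0.016 over all genes, so more genes had a smaller than a larger response in KO. By length, the median was 0.12 for members with under 1000 exon bases, which include most of complex IV, and -0.03 for longer ones. The parts of length and of complex in this difference were not tested. The members' median also depended on the KO libraries used. Without KO libraries 5 and 6 the members' median was 0.168, against -0.036 over all genes. Without KO libraries 7 and 8 it was 0.002, against -0.001.

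Between the genotypes at rest, few members differed. In M0, 4 of 81 were called higher in KO and 7 lower, where 11.8% of all genes were called higher and 10.5% lower. Ndufa4l2, Sdhb, Ndufa9 and Ndufs3 were higher, and Atp5e, Uqcr10, Ndufv1, Ndufb7, Atp5h, Atp5g2 and Uqcrfs1 were lower. After LPS, 8 were higher and 8 lower, where 16.2% of all genes were called higher and 14.6% lower. The higher ones were Ndufa4l2, Cox7a1, Uqcrh, Ndufs4, Ndufa1, Ndufs3, Cox4i1 and Cox5a. All 5 calls among members named for complex V, Atp5sl, Atp5g1, Atp5e, Atp5g2 and Atp5d, were lower. Without KO libraries 5 and 6, 13 of 81 were higher in LPS, where 14.2% of all genes were. Ndufv1, Uqcr10, Atp5e and Atp5g2 were lower in KO in all 3 states, and Ndufa4l2 was higher in all 3. The genes called higher in M0 and the LPS calls of Uqcr10 and Atp5e were lost in part of the alternatives: with library numbers summed in pairs no member was called higher in M0, and without the shallow libraries neither Uqcr10 nor Atp5e was called in LPS.

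**Figure D3:**
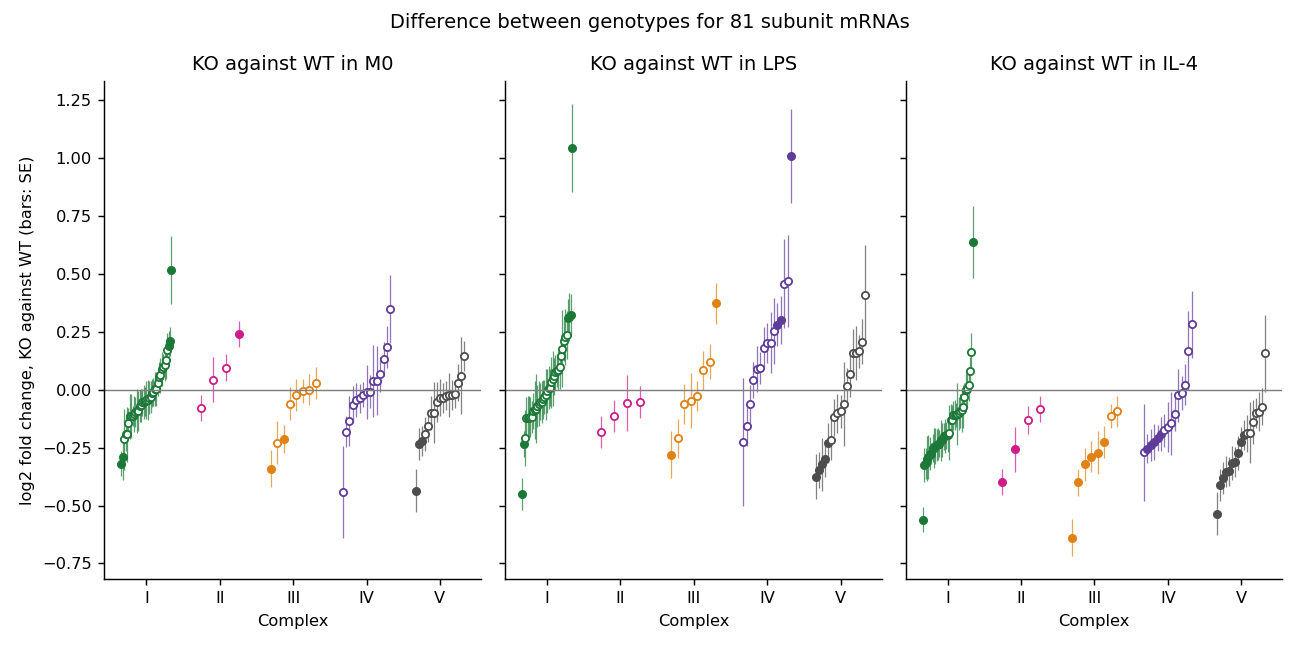
KO minus WT difference (log2 fold change, bars ± SE) of each tested member in M0, LPS and IL-4, grouped by complex, with filled points for those called at an adjusted p under 0.05. In IL-4, 71 of 81 members lie below 0 and 41 were called lower; in M0 and LPS 11 and 16 were called in all.

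Complex II, succinate dehydrogenase, is the smallest complex, wholly nuclear encoded, and the only one shared by the respiratory chain and the tricarboxylic acid cycle. Its 4 genes lie on chromosome 13 (Sdha, 74322255 to 74350240), chromosome 4 (Sdhb, 140961271 to 140979198), chromosome 1 (Sdhc, 171129157 to 171150640) and chromosome 9 (Sdhd, 50596340 to 50603849) of GRCm38.p6. Sdha encodes the flavoprotein that oxidises succinate, Sdhb the iron-sulfur subunit, and Sdhc and Sdhd the membrane anchors that bind ubiquinone.

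The iron-sulfur subunit gene Sdhb had 78.9, 96.4, 88.7 and 85.3 CPM in WT M0 and 104, 104, 98.6 and 106 CPM in KO M0. The resting levels did not overlap and KO was higher, by 0.24 ± 0.056 (log2 ± SE, adjusted p = 0.00289 by edgeR's quasi-likelihood test). After IL-4, Sdhb had 135, 134, 122 and 137 CPM in WT and 130, 124, 121 and 122 CPM in KO. These ranges overlapped, and KO against WT was -0.08 ± 0.056 (adjusted p = 0.246). The rise with IL-4 was 0.59 ± 0.056 in WT and 0.27 ± 0.056 in KO, and the difference of the responses was -0.32 ± 0.079 (adjusted p = 0.0432). LPS gave a like picture, with 144, 105, 126 and 132 CPM in WT and 127, 123, 114 and 123 CPM in KO. The LPS response was 0.56 ± 0.065 in WT and 0.26 ± 0.059 in KO, with a difference of -0.29 ± 0.089 (adjusted p = 0.0322). Both differences contain the same higher M0 level of KO.

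The anchor gene Sdhd differed at the other end of the response. It had 89.9, 97.9, 94.6 and 93.6 CPM in WT M0 and 89.9, 89.1, 88.4 and 89.1 CPM in KO M0, and 147, 147, 128 and 139 CPM in WT IL-4 against 112, 110, 101 and 103 CPM in KO IL-4. All 4 WT values after IL-4 lay above all 4 KO values, with a difference of -0.40 ± 0.056 (adjusted p = 6.66e-06). IL-4 raised Sdhd by 0.58 ± 0.056 in WT and 0.26 ± 0.056 in KO, and the interaction was -0.32 ± 0.079 (adjusted p = 0.0442). Both IL-4 interactions lie close to the threshold: over 24 alternatives the fitted values ran from -0.38 to -0.28 for Sdhb and from -0.38 to -0.27 for Sdhd, and 8 of the 24 passed for each gene.

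Sdha and Sdhc moved in the same direction with IL-4. Sdha had 249, 255, 266 and 247 CPM in WT M0 and 356, 355, 355 and 357 CPM in WT IL-4, a rise of 0.48 ± 0.059 (adjusted p = 1.12e-07), and 276, 274, 270 and 267 CPM in KO M0 and 337, 338, 300 and 324 CPM in KO IL-4, a rise of 0.26 ± 0.059 (adjusted p = 7e-04). Neither M0 group overlapped its IL-4 group, and the interaction did not pass (-0.23 ± 0.083, adjusted p = 0.197). Sdha was the complex II gene that LPS lowered in KO, to 211, 210, 209 and 215 CPM, a fall of 0.36 on the log2 scale (adjusted p = 1.62e-05), and in WT the change to 155, 204, 241 and 240 CPM was -0.15 ± 0.067 (adjusted p = 0.0561). With DESeq2 or with RLE scaling, Sdha was called lower after LPS in WT too. The difference between the LPS responses of Sdha did not pass in the reported fit but passed without the shallow libraries. Sdhc rose by 0.56 ± 0.097 in WT with IL-4, from between 81.9 and 92.5 CPM to between 124 and 140 CPM. In KO, Sdhc was split by library number after IL-4, with 125 and 116 CPM in libraries 5 and 6 and 101 and 88.9 CPM in 7 and 8. Its lower call in KO against WT (-0.26 ± 0.097, adjusted p = 0.0394) passed in 6 of 15 alternatives.

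**Figure D4:**
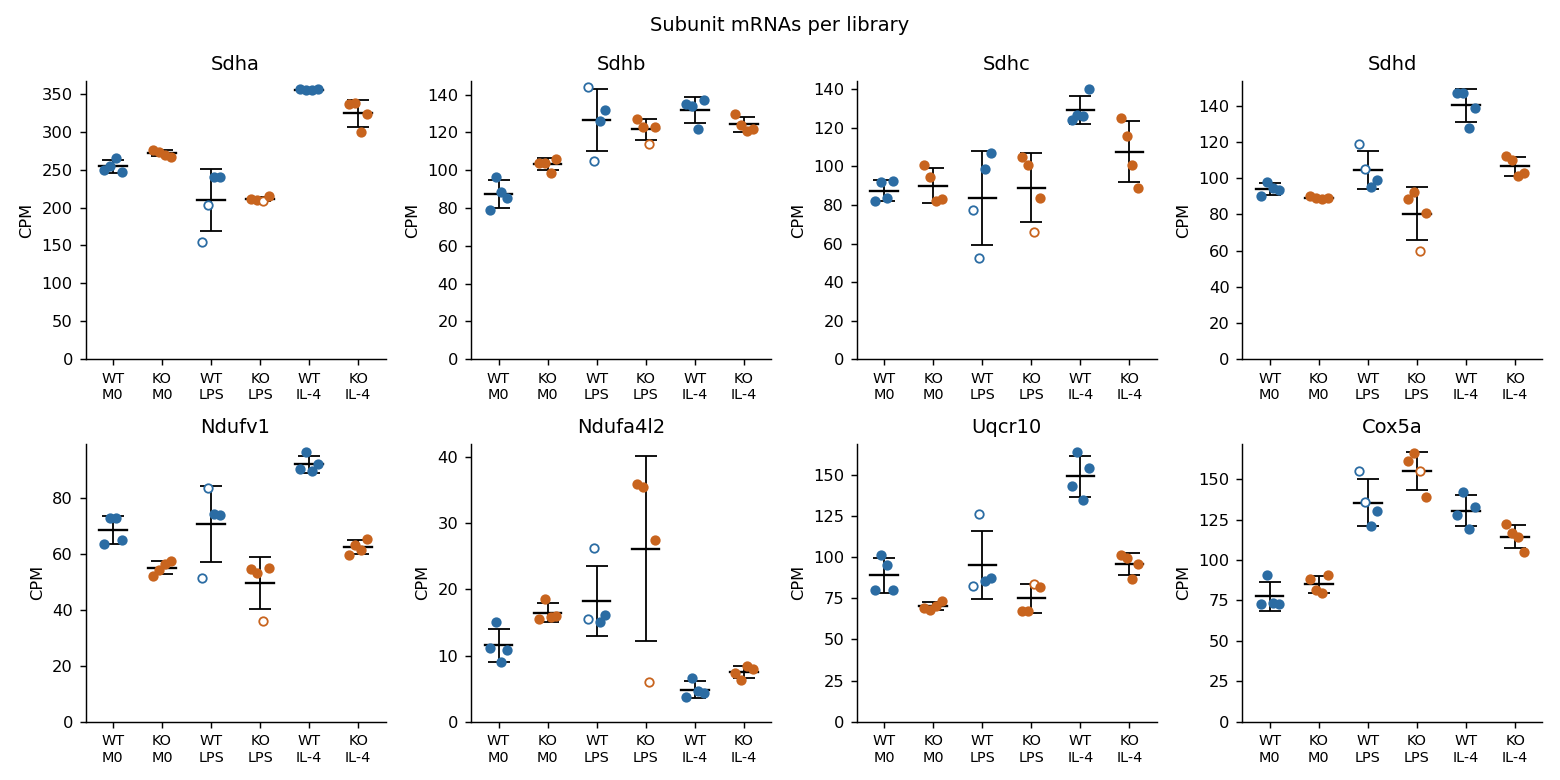
CPM of 8 members in every library (points, open for the 3 shallow libraries) with the mean and SD of each group. Sdhd, Ndufv1 and Uqcr10 have no overlap between WT and KO in IL-4, and Ndufa4l2 falls with IL-4 in both genotypes.

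In complex I, the entry point for NADH, the subunit that binds FMN and NADH showed the firmest genotype difference. Ndufv1 (chromosome 19, 4007499 to 4012755) had 63.6, 72.9, 73 and 65 CPM in WT M0 and 52.2, 54.2, 56.4 and 57.4 CPM in KO M0. After IL-4 it had 90.4, 96.5, 89.7 and 92.3 CPM in WT and 59.8, 63.3, 61.5 and 65.6 CPM in KO. WT and KO did not overlap in either state. The log2 difference of KO from WT was -0.32 ± 0.056 at rest (adjusted p = 0.000182), -0.45 ± 0.070 with LPS (2.61e-05) and -0.56 ± 0.056 with IL-4 (6.62e-08), and each of these passed in all 15 alternatives. The IL-4 response was 0.43 ± 0.056 in WT and 0.18 ± 0.056 in KO, with an interaction of -0.24 ± 0.079 (adjusted p = 0.133).

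Ndufv2, which partners Ndufv1 in the NADH dehydrogenase module, had 89.3, 104, 93.2 and 100 CPM in WT IL-4 and 78.1, 78, 71.1 and 82.8 CPM in KO IL-4. The groups did not overlap, and the difference was -0.32 ± 0.066 (adjusted p = 0.000533). Ndufs1, the largest iron-sulfur subunit of that module, did not show it: after IL-4 it had 73.7, 76.2, 75.5 and 76.6 CPM in WT and 74, 72.3, 68.6 and 65.1 CPM in KO, a difference of -0.11 ± 0.053 (adjusted p = 0.111). Ndufb3, a membrane arm subunit, was lower in KO by a log2 value of -0.33 ± 0.073 (adjusted p = 0.00115), with 57.1, 69, 58 and 59.4 CPM in WT and 49, 49.5, 44.2 and 51.5 CPM in KO.

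Induction by IL-4 was shared across the arms of complex I. Ndufa12, an accessory subunit of the peripheral arm, rose the most, from 59.7, 66.4, 64.7 and 55.2 CPM to 107, 110, 96.3 and 103 CPM in WT, a change of 0.76 ± 0.069 (adjusted p = 8.25e-10). In KO it went from between 56.8 and 60.1 CPM to between 80.4 and 93.9 CPM, a change of 0.59 ± 0.069 (adjusted p = 9.93e-08). Ndufb5 and Ndufc1 of the membrane arm rose by 0.71 ± 0.059 and 0.67 ± 0.072 in WT. In KO, Ndufb8 and Ndufb10 of the same arm followed Ndufa12, with 0.54 ± 0.065 and 0.48 ± 0.074. Ndufa6 was called in no comparison, with between 37.3 and 44.4 CPM in WT M0 and between 40.7 and 47.5 CPM in WT IL-4.

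LPS gave complex I a mixed pattern. Ndufs4, an accessory subunit at the NADH module, had 44.7, 52.1, 43.5 and 42.8 CPM in WT M0 and 77.4, 88.9, 71.8 and 73.4 CPM in WT LPS, and 45.4, 45, 43.9 and 49.1 CPM in KO M0 and 95.3, 93.7, 47.8 and 89.5 CPM in KO LPS. All deep LPS libraries lay above the M0 libraries, and the value of 47.8 CPM is the shallow KO LPS 7. The changes were 0.68 ± 0.085 in WT (adjusted p = 1.29e-07) and 0.999 ± 0.076 in KO (8.79e-12). Ndufs3, a core subunit near the ubiquinone site, also rose, by 0.45 ± 0.078 and 0.57 ± 0.070. Ndufs1, Ndufs8 and Ndufb10 fell in both genotypes, Ndufs1 by 0.22 in WT and 0.44 in KO. Ndufs8, an iron-sulfur core subunit, had 63.1, 59.3, 55.8 and 60.2 CPM in KO M0 and 49.3, 46.9, 95.7 and 54.5 CPM in KO LPS, where 95.7 CPM is the shallow library 7 (-0.23 in log2, adjusted p = 0.00962). Ndufb10 had 67.3, 66.6, 63.9 and 66.6 CPM in KO M0 and 54.6, 54.1, 53.8 and 61.8 CPM in KO LPS (-0.22, adjusted p = 0.0182). The calls of Ndufs8 and Ndufb10 in KO were lost without KO libraries 5 and 6.

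Ndufa4 and Ndufa4l2 carry complex I names, but the Ndufa4 protein is known to associate with complex IV, and Ndufa4l2 is known as a hypoxia-induced relative. Ndufa4l2 (chromosome 10, 127509274 to 127517154) had 11.2, 15, 9.02 and 10.9 CPM in WT M0 and 15.6, 18.6, 15.8 and 16 CPM in KO M0, and 3.7, 6.64, 4.68 and 4.29 CPM in WT IL-4 against 7.3, 6.31, 8.37 and 7.94 CPM in KO IL-4. It ran against most members, falling with IL-4 by 1.26 in WT and 1.14 in KO on the log2 scale. KO exceeded WT by 0.52 ± 0.15 at rest (adjusted p = 0.0117), 1.04 ± 0.19 with LPS (0.000162) and 0.64 ± 0.15 with IL-4 (0.00244), and the last 2 passed in all 15 alternatives. Deep LPS libraries had 15.1 and 16.1 CPM in WT and 35.9, 35.4 and 27.4 CPM in KO. Per kilobase, Ndufa4l2 made up 6.33% of the pair in WT M0 and 9.06% in KO M0, 8.57% and 16.1% in LPS, and 2.04% and 3.71% in IL-4, over deep libraries. Ndufa4 itself rose with IL-4, by 0.44 ± 0.069 in WT and 0.23 ± 0.069 in KO.

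Complex III, which passes electrons from ubiquinol to cytochrome c, had the lowest KO median in IL-4 of the 5 complexes, at -0.28. Uqcr10, a small accessory subunit, had 80, 101, 95.1 and 80.3 CPM in WT M0 and 69.3, 67.9, 70.6 and 73.6 CPM in KO M0, and 143, 164, 135 and 154 CPM in WT IL-4 against 101, 99.7, 86.5 and 95.7 CPM in KO IL-4. The genotypes did not overlap in either state. The KO difference was -0.34 ± 0.080 at rest (adjusted p = 0.00314) and -0.64 ± 0.080 with IL-4 (1.71e-06), the largest fall of any member there. Its IL-4 response was 0.74 ± 0.080 in WT and 0.44 ± 0.080 in KO, with an interaction of -0.30 ± 0.11 (adjusted p = 0.214).

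Uqcrfs1, the Rieske iron-sulfur protein, had 65.9, 71.6, 63.2 and 67.9 CPM in WT M0 and 58, 57.6, 55.6 and 60.5 CPM in KO M0, and 100, 109, 91.9 and 98.9 CPM in WT IL-4 against 81.4, 78.6, 72.3 and 71.5 CPM in KO IL-4. The difference in IL-4 was -0.40 ± 0.059 (adjusted p = 1.29e-05), again without overlap. In deep LPS libraries the order was turned, with 59.2 and 63.7 CPM in WT and 66, 67 and 65 CPM in KO, although that difference did not pass (0.12 ± 0.075, adjusted p = 0.234). The LPS response was -0.15 ± 0.071 in WT and 0.19 ± 0.064 in KO, and the interaction of 0.33 ± 0.096 (adjusted p = 0.0237) passed in 20 of 24 alternatives. Uqcrh, the hinge protein at the cytochrome c site, had 78.4 and 82.9 CPM in deep WT LPS libraries and 98.9, 109 and 112 CPM in KO, a difference of 0.37 ± 0.089 (adjusted p = 0.00221). Its interaction of 0.34 ± 0.11 (adjusted p = 0.0481) passed in 8 of 24. Uqcrc1, a core protein, was the complex III gene that IL-4 raised the most, from between 148 and 178 CPM to between 255 and 288 CPM in WT, a change of 0.83 ± 0.069 (adjusted p = 1.62e-10).

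In complex IV, cytochrome c oxidase, more members rose than fell after LPS in KO, and in WT this held in the reported fit. In KO, 11 of its 15 tested members were higher and 2 lower, with a median of 0.392, and in WT 6 were higher and 2 lower, with a median of 0.185. Complex I had equally many higher calls among its 37 tested members, 11 in KO and 6 in WT. The WT calls of complex IV depended on the method. With RLE scaling, Cox5b, Cox6a1 and Cox7a2 were no longer called higher in WT, and Cox7a1 was called lower. With DESeq2, Cox4i2, Cox5b, Cox6a1, Cox7a2 and Cox8a lost their higher call there, and Cox6b2 its lower call. In neither did higher calls outnumber lower ones. Across all genes, 29.4% rose with LPS in WT and 28.3% fell, against 31.2% and 36% in KO. Cox5a, a subunit on the matrix side, had 72.6, 90.8, 73.5 and 72.9 CPM in WT M0 and 155, 136, 121 and 130 CPM in WT LPS, and 88.3, 81.3, 79.5 and 90.5 CPM in KO M0 and 161, 166, 155 and 139 CPM in KO LPS. LPS and M0 did not overlap in either genotype, and the changes were 0.72 ± 0.087 (adjusted p = 7.9e-08) and 0.87 ± 0.079 (3.15e-10). IL-4 raised Cox5a too, to 128, 142, 119 and 133 CPM in WT and 122, 117, 114 and 105 CPM in KO. Cox5b was called higher with both stimuli in both genotypes in the reported fit. Cox7b and Cox8a, small subunits of the enzyme, rose by 0.77 ± 0.064 and 0.66 ± 0.056 with IL-4 in WT.

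Among paralogs of complex IV, the ubiquitous forms dominated in all 6 groups. Cox4i2, the form known from lung and from hypoxic cells, made up 0.675% of the Cox4i pair per kilobase in WT M0 and 0.227% in WT IL-4, where it fell by 1.24 on the log2 scale. Cox7a1, known from heart and skeletal muscle, made up 5.84% of its pair in WT M0 and 7.64% in KO M0. After LPS, deep libraries had 3.27 and 3.01 CPM of Cox7a1 in WT and 5.65, 5.65 and 7.43 CPM in KO, a log2 difference of 1.01 ± 0.20 (adjusted p = 0.000457) that passed in all 15 alternatives. The 6 markers of striated muscle, of which 2 passed the filter, summed to at most 0.543 CPM in any deep LPS library. In M0 they summed to 1.56 to 2.34 CPM in WT and 1.57 to 2.66 CPM in KO. Their relation to Cox7a1 was not tested. Cox6a2, the other muscle form, was below 5 CPM in all deep libraries and rose with IL-4 by 1.42 ± 0.14 in WT and 1.24 ± 0.14 in KO. Cox6b2, known from testis, fell with both stimuli, and Cox8b stood at 0 counts.

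Cox7a2l, a Cox7a relative known for its part in supercomplex assembly, behaved unlike most of its complex. It had 110, 135, 123 and 120 CPM in WT M0, 101, 115, 99.5 and 104 CPM in WT IL-4, 111, 105, 106 and 109 CPM in KO M0 and 86.1, 82.6, 88.1 and 98.5 CPM in KO IL-4. The KO groups did not overlap and the WT groups did. IL-4 lowered it by 0.22 in WT and 0.28 in KO on the log2 scale, and LPS by 0.44 and 0.41.

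Complex V showed lower KO levels in both of its parts. In the F1 head, Atp5e had 227, 280, 211 and 240 CPM in WT IL-4 and 164, 168, 146 and 183 CPM in KO IL-4, and Atp5d, the delta subunit of the central stalk, had 246, 282, 241 and 249 CPM in WT and 190, 201, 188 and 186 CPM in KO. Neither overlapped between genotypes, with differences of -0.53 ± 0.092 (adjusted p = 8.31e-05) and -0.41 ± 0.070 (6.71e-05). The beta subunit Atp5b was lower by less, at 1340, 1340, 1290 and 1290 CPM in WT and 1180, 1190, 1090 and 1140 CPM in KO (-0.19 ± 0.066, adjusted p = 0.0225). The alpha subunit Atp5a1 was not called, with 999, 1030, 979 and 979 CPM in WT and 968, 1010, 879 and 863 CPM in KO (-0.10 ± 0.065, adjusted p = 0.238).

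The 3 genes Atp5g1, Atp5g2 and Atp5g3 encode the same mature c subunit of the membrane ring. In WT M0 they had 98 to 111, 173 to 204 and 147 to 176 CPM, and in WT IL-4 165 to 190, 242 to 278 and 268 to 318 CPM. The rise was largest in Atp5g3 (0.87 ± 0.066) and Atp5g1 (0.83 ± 0.062) and smaller in Atp5g2 (0.41 ± 0.066). All 3 were lower in KO than in WT after IL-4, by -0.35 ± 0.062, -0.31 ± 0.066 and -0.35 ± 0.066. LPS parted Atp5g1 by genotype, with 109 and 117 CPM in deep WT libraries and 85.5, 84.2 and 91.5 CPM in deep KO libraries, a difference of -0.35 ± 0.077 (adjusted p = 0.00121). Atp5h, subunit d of the peripheral stalk, was lower in KO in IL-4 by -0.38 ± 0.069, and Atp5o, which links the stalk to the head, rose with IL-4 by 0.80 ± 0.080 in WT and 0.65 ± 0.080 in KO. Atp5sl, which bears a synthase name but is known as a complex I assembly factor, fell with IL-4 in both genotypes, by 0.25 in WT and 0.38 in KO.

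Members also moved together between libraries of a group, which bears on the size of every difference above. WT M0 library 2 exceeded the mean of the other 3 for 37 of 39 members with under 1000 exon bases and 41 of 42 longer members, with medians of 0.19 and 0.15 on the log2 scale, while WT M0 libraries 1 and 4 were lower in median. WT IL-4 library 2 was high for 38 of 39 and 39 of 42 members, by 0.19 and 0.11. In KO IL-4 library 8 only the short members were raised, with a median of 0.16 against 0 for the long ones. KO LPS library 8 showed a like split from the other deep KO LPS libraries, with medians of 0.15 and 0.04. Medians over all genes were between -0.02 and 0.02 in these libraries. The difference of KO from WT in IL-4 was seen in both length classes, with 16 of 39 short members lower (median -0.18) and 25 of 42 long members lower (median -0.22). After LPS in KO, the median was 0.2 for short and 0.09 for long members. These shared deviations make the members of a library dependent on each other, so counts of members are not counts of independent events.

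**Figure D5:**
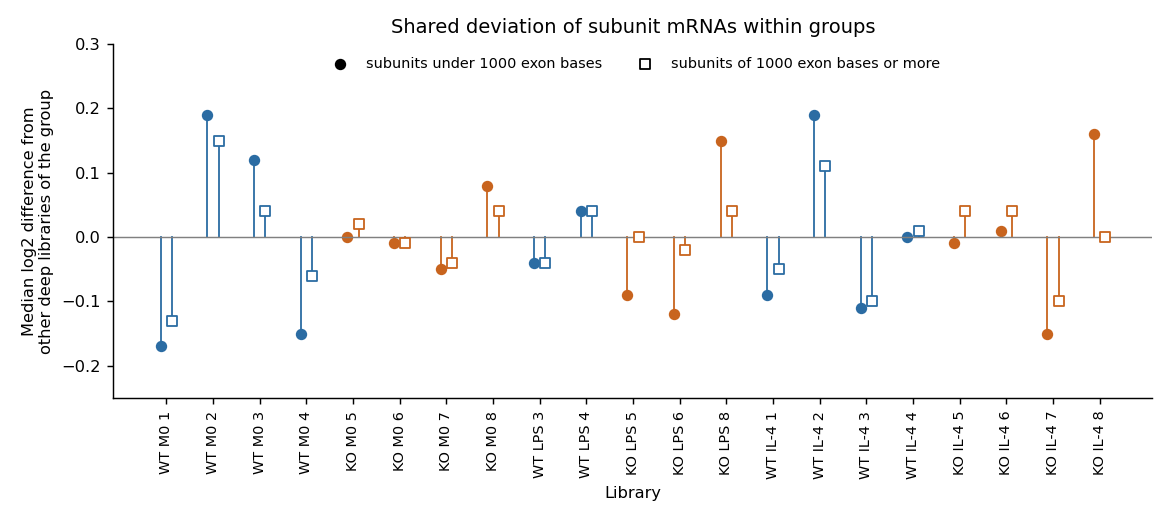
Median log2 difference of members with under 1000 exon bases and of longer members from the mean of the other deep libraries of the same group, 1 pair of points for each of the 21 deep libraries. WT M0 2 and WT IL-4 2 stand at 0.19 for the short members, and WT M0 1 and WT M0 4 at -0.17 and -0.15.

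Genes that serve the chain without being members are read here beside all genes, of which 30.9% rose with IL-4 in WT, 26% rose in KO, and 18.2% were lower in KO than in WT after IL-4. Of 46 tested assembly factors, 33 (71.7%) rose and none fell with IL-4 in WT, and 24 (52.2%) rose and 2 fell in KO. After IL-4, 16 (34.8%) were lower in KO than in WT and 1 was higher. Uqcc1, needed for assembly of complex III, was lower in KO by -0.36 ± 0.058 (adjusted p = 3.09e-05), and Pet100, a complex IV assembly factor, was the 1 that was higher (0.43 ± 0.13, adjusted p = 0.014). Of 12 tested genes of coenzyme Q synthesis, 9 (75%) rose and 1 fell in WT and 6 (50%) rose and 1 fell in KO. After IL-4, 4 of them (33.3%) were lower in KO, among them Coq2, which attaches the side chain (-0.42 ± 0.068, adjusted p = 4.26e-05). Of 7 genes for other electron entry to ubiquinone, 6 (85.7%) rose and 1 fell with IL-4 in each genotype, and 3 (42.9%), Etfb, Dhodh and Prodh, were lower in KO in IL-4. In LPS, Gpd2 of the same list, the mitochondrial glycerol phosphate dehydrogenase, rose by 2.30 ± 0.071 in WT and 2.54 ± 0.067 in KO. Of 8 genes for nucleotide and phosphate exchange, 5 (62.5%) rose in each genotype with IL-4 and 4 (50%) were lower in KO in IL-4, with Slc25a5, an ADP/ATP carrier, at -0.30 ± 0.051 (adjusted p = 6.71e-05).

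Cytochrome c itself, Cycs, rose with LPS by 1.48 ± 0.070 in WT and 1.92 ± 0.067 in KO, and the responses differed by 0.44 ± 0.096 (adjusted p = 0.00323). Cyc1, the cytochrome c1 of complex III, was lower in KO after IL-4, by -0.32 ± 0.068 (adjusted p = 0.000652). AA467197, the mouse gene of a protein related to Ndufa4, had between 0.397 and 0.484 CPM in WT M0, between 2.85 and 3.29 CPM in WT IL-4 and 37.1 and 38.6 CPM in deep WT LPS libraries. In KO it had between 0.371 and 1.14 CPM in M0, between 1.7 and 1.95 CPM in IL-4 and 95.6, 95.5 and 79.5 CPM in deep LPS libraries. It was higher in KO after LPS by 1.25 ± 0.16 (adjusted p = 2.3e-06) and lower after IL-4 by -0.73 ± 0.16 (adjusted p = 0.000819). Of 19 regulators of mitochondrial biogenesis, 10 (52.6%) rose and 1 fell with IL-4 in WT, and 6 (31.6%) rose in KO. Ppargc1b, a coactivator known to act in IL-4-stimulated macrophages, rose alike by 2.37 ± 0.14 and 2.54 ± 0.15, with a difference of 0.17 ± 0.20 (adjusted p = 0.778). In IL-4, 3 of the 19 (15.8%) were lower in KO, a share below the 18.2% of all genes. Among them were Esrra, a nuclear receptor that works with it (-0.44 ± 0.073, adjusted p = 5.58e-05), and Tfam, which packages mitochondrial DNA (-0.47 ± 0.071, adjusted p = 1.85e-05). None of the 13 mitochondrially encoded subunits was matched by symbol, so they were not analysed here.

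Promoter sequence was read from RefSeq for GRCm38.p6 as windows of 250 bases before to 50 after each gene start, with 76 windows for 70 of the 85 members. The letters GCGCANGCG, a core of the site of NRF1, a factor known for respiratory genes, were found on either strand in 27.6% of member windows and 6.25% of all 32851. For YY1 (AAGATGGCG) the shares were 11.8% and 1.4%, for ETS factors (CCGGAAG) 21.1% and 8.86%, for ERR (TCAAGGTCA) 2.63% and 0.423%, and for SP1 (GGGCGG) 39.5% and 35.7%. A match is a run of letters and shows no binding. In most of these windows the upstream bases overlap an annotated exon, and 18 of 76 have none. The sites below come from members with several matches or from genes named above, in the direction of the gene, all on the minus strand, with the NRF1 letters in capitals (10 letters where matches on both strands overlap) and the position of the capitals.
Sdha (chr13:74350330-74350338): cgtttacaggGCGCAGGCGcaccaccact
Sdha (chr13:74350287-74350295): ggggcgtgttGCGCAGGCGcagaatcttc
Sdha (chr13:74350242-74350250): gcgactcggtGCGCAAGCGc
Sdhd (chr9:50603920-50603928): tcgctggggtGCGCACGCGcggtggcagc
Ndufb4 (chr16:37654551-37654559): gagaagcagtGCGCACGCGcagaatacgc
Ndufb4 (chr16:37654439-37654447): ccttgtgcgcGCGCAGGCGcacttcctga
Ndufb4 (chr16:37654382-37654390): cctcatatccGCGCAGGCGcagatgtgcg
Cox6a1 (chr5:115349111-115349120): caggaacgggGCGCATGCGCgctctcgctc
Cox6a1 (chr5:115349067-115349075): cggataaagtGCGCAGGCGctggagttcc
Atp5g2 (chr15:102671080-102671089): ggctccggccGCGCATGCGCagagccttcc
Atp5h (chr11:115420052-115420060): gaccccgacgGCGCAGGCGccgcgcccgc
The 3 Sdha matches lie 90, 47 and 2 bases before the annotated start, and the single Sdhd match lies 71 bases before its own. With IL-4 in WT, 18 of 19 tested members with the letters and 41 of 48 without were higher, both with a median of 0.5. In KO, 18 of 19 with them (median 0.42) and 35 of 48 without (median 0.36) were higher, and no test of these differences was made. KO against WT in IL-4 was lower for 10 of 19 and 27 of 48, both with a median of -0.2. Ndufb4 has 3 matches and was not called lower in KO, with 70.6, 82.8, 71.8 and 75.9 CPM in WT IL-4 and 82.7, 84.6, 76.1 and 93.8 CPM in KO IL-4 (0.16 ± 0.082, adjusted p = 0.123).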

How the data were processed

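Each of the 24 deposited files lists, per gene symbol, an unnormalised read count. Per the submitters' processing notes, TopHat2 2.1.0, HTSeq 0.9.1 and the mouse build mm10 (GRCm38) were used. No source used here names the annotation, the library kit or the strand setting. Reads of overlapping or antisense genes and of near-identical pseudogenes cannot be told apart. The 5 summary lines of each file were left out; they hold 3.6% to 4.5% of reads as not unique and 1.91% to 2.24% as ambiguous.

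The counts were fitted with edgeR 4.0.16 under R 4.3.3, using TMM factors, filterByExpr by group (14693 genes kept), 1 coefficient per group over all 24 libraries (18 residual degrees of freedom), the quasi-likelihood test, and Benjamini-Hochberg adjustment over the 14693 genes, with calls at an adjusted p under 0.05. There were 9 contrasts: the genotypes compared in each state, each stimulus against M0 in each genotype, and the 2 interactions. Contrasts within a genotype share their M0 libraries. Errors are SE for log2 fold changes and SD for CPM. Fits on fewer libraries kept the same genes and TMM reference library. DESeq2 1.42.0 was an alternative, and limma 3.58.1 is a dependency of edgeR.

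The members and the gene lists were chosen with earlier results of these data known, so no list was tested, and counts are set beside those of all genes. Named genes are all of complex II, fixed core and paralog genes, the 3 called members with the largest change per complex, direction and comparison with a mean of at least 5 CPM, and up to 4 called genes per pathway list. Ndufa6, Ndufb4 and the members listed as not called fall outside this rule and were chosen after their values were seen. Library numbers were not used as pairs in the reported fit, since no label ties them to a mouse or culture. Deviations of same-numbered libraries correlated at over 0.1 in every KO pair of M0 with LPS (0.109 to 0.253) and of M0 with IL-4 (0.238 to 0.636), and in WT not in every pair. In KO, different numbers within 5 and 6 or within 7 and 8 did so too (0.11 to 0.645). Over all groups, 14 of 24 same-numbered pairs were over 0.1 (median 0.147). RefSeq symbols matched 82 members directly and 3 by synonym.

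The procedure was tested on simulated counts of 14356 genes. All groups had the WT M0 means, genes were drawn independently, and 50 genes per fold were altered in KO IL-4 and 50 in WT LPS. Deviations shared by the genes of a library, and shifts of many genes at once, were not simulated. The rates below therefore do not cover errors from these. For KO against WT in IL-4 the calls held 48% of the genes altered 1.2-fold and 100% of the ones altered 1.5-, 2- and 4-fold, and 18 calls were false (9.38%). For LPS against M0 in WT they held 14% and 86% at 1.2- and 1.5-fold and 100% above, and 4 were false (2.6%).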

Additional observations from a re-analysis of the deposited data

Results flagged for a closer look

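The response itself differed between the genotypes in 6 cases. For LPS these were Sdhb (-0.29), Atp5g1 (-0.33), Uqcrh (0.34) and Uqcrfs1 (0.33), and for IL-4 Sdhb (-0.32) and Sdhd (-0.32), all as the log2 response of KO minus that of WT.

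In 14 of 192 groups of 4 libraries, 1 library stood apart from the other 3, where chance gives about 1 in 20 groups. In shallow libraries these were KO LPS 7 for Ndufv1 (35.9 CPM, others 53.3 to 55), Atp5b (670, others 909 to 932), Cox4i2 (23.9, others 5.47 to 7.2), Cox7a1 (17.9, others 5.65 to 7.43) and Atp5g2 (102, others 136 to 138), WT LPS 2 for Ndufa4l2 (26.2, others 15.1 to 16.1) and WT LPS 1 for Cox7a2l (67, others 88.9 to 92.9). In deep libraries they were WT IL-4 4 for Sdhc (140, others 124 to 127), WT M0 2 for Uqcrc1 (178, others 148 to 151), WT IL-4 3 for Uqcrc1 (255, others 283 to 288), KO M0 6 for Ndufa4l2 (18.6, others 15.6 to 16), KO IL-4 5 for Cox7a2 (118, others 108 to 109), KO M0 7 for Atp5g2 (152, others 165) and WT IL-4 2 for Atp5g2 (278, others 242 to 245).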

How the results depend on the processing

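No call of a named member changed its sign under any alternative, and the counts of members higher after IL-4 stayed within 1.5 times of 71 and 62 in every one. Depth limited mainly the LPS groups, in which 3 of 8 libraries are shallow. Counts of members called higher and lower that moved further are these, where the cause was not tested. With DESeq2, KO against WT had 5 lower in LPS and 25 lower in IL-4, LPS had 8 higher in WT and 20 higher in KO, and the LPS interaction had 1 and 1. With RLE scaling, LPS had 11 and 14 in WT and 21 higher in KO. With no filter, the LPS interaction had 1 higher and the IL-4 interaction 0 lower. With neighbouring numbers summed to 2 samples a group, KO against WT had 0 and 2 in M0, 4 and 3 in LPS and 14 lower in IL-4, LPS had 5 lower in WT and 6 lower in KO, IL-4 had 3 lower in WT, and both interactions had 0. At an adjusted p under 0.01, KO against WT had 1 and 3 in M0 and 5 and 5 in LPS, LPS had 11 and 4 in WT and 20 and 6 in KO, and both interactions had 0. Without the shallow libraries the IL-4 interaction had 6 lower. Without KO libraries 5 and 6, chosen after seeing the data, KO against WT had 13 higher in LPS and 2 higher in IL-4, LPS in KO had 4 lower, IL-4 in KO had 3 lower, the LPS interaction had 1 lower and the IL-4 interaction 6 lower. Without KO libraries 7 and 8, likewise chosen, the IL-4 interaction had 0.

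Leaving out 1 library at a time gave 2 to 6 higher and 4 to 10 lower for KO against WT in M0, 4 to 10 and 5 to 9 in LPS, and 1 to 1 and 28 to 44 in IL-4. It gave 13 to 27 and 5 to 11 for LPS in WT, 23 to 33 and 6 to 12 for LPS in KO, 64 to 72 and 5 to 5 for IL-4 in WT, 61 to 64 and 4 to 5 for IL-4 in KO, 0 to 3 and 0 to 3 for the LPS interaction, and 0 to 0 and 0 to 8 for the IL-4 interaction. The IL-4 interaction had 8 without WT M0 2 and 0 without WT M0 1, 3 or 4, KO M0 5, 7 or 8, WT IL-4 1, 2 or 4, or KO IL-4 7 or 8. In M0, 2 were higher without WT M0 1, 3 or 4 or KO M0 8, and 4 were lower without WT M0 2 or 3 or KO M0 7. In LPS, WT LPS 3 and 4 each gave 5 or fewer in both directions. For LPS in WT, 5 were lower without WT M0 3 and 6 without WT LPS 3 or 4, and for LPS in KO 6 were lower without KO LPS 5 or 6. If the TMM reference library is chosen anew in each fit, 16 of 24 fits take a shallow one, and LPS in WT then gave 6 to 20 higher and 4 to 21 lower.

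The replicate block, with the library number as a term, changed LPS to 31 higher and 11 lower in WT and 36 and 11 in KO, IL-4 to 72 and 5 in WT and 70 and 5 in KO, the LPS interaction to 6 and 4, and the IL-4 interaction to 20 lower. Of all genes, 31.4% were then higher with LPS in WT, so the members' share went from below to above that of all genes, as it did without KO libraries 7 and 8 (28 of 81 against 32.5%). Whether the numbers pair the libraries is not settled. Same-numbered ones had correlations of -0.187 to 0.699 (median 0.147, 14 of 24 over 0.1), against a median of -0.073 and 18 of 72 for different numbers. In KO, different numbers within 5 and 6 or within 7 and 8 also correlated, at 0.11 to 0.645. KO M0 5 had 0.645 with KO IL-4 6 and 0.636 with KO IL-4 5. These values cannot part pairing by number from the split of KO libraries 5 and 6 from 7 and 8. No paired analysis was possible for KO against WT because the genotypes share no numbers.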
